A study of Triticum aestivum with 4 samples.

Results

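In the roots of 2 common wheat (Triticum aestivum) cultivars, 213 of 61115 probe sets gave a much stronger signal after osmotic stress than in water, in both cultivars. A probe set is a group of short probes on the array that reads 1 transcript, or several close relatives of it. The stressed roots were those of Luohan No.2 and Chinese Spring seedlings at the 2-leaf stage, kept for 6 h in a solution of polyethylene glycol (PEG) 6000 with an osmotic potential of -0.49 MPa. The controls were roots of the same cultivars in tap water. The series holds 1 array for each of these 4 combinations, so no value below has a measured spread between plants, and the number of arrays sets the precision. No test was run: the difference between PEG and water chose the probe sets, and 1 array per group leaves nothing against which to test the cultivars' responses. How many seedlings went into a sample is not stated in the labels. Signals were on the linear scale of the authors' processing, in which each array is brought to a common average.

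A probe set was counted as induced when its signal was 100 or more on both PEG arrays and its PEG signal was at least 3 times its water signal in each cultivar, with signals under 25 set to 25. Control probe sets were not considered. The rule was met by 218 probe sets, 0.357% of all, and 5 of them, annotated to Rab15, LEA1 or Glc1, were set aside, which left the 213. The members were chosen by these PEG and water signals, so their levels and folds are given as a description. That they were induced in both cultivars holds by construction. Where a water signal was below 25, the fold is a lower bound and is written as at least N-fold.

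PEG lowers the water potential around a root without entering its cells, and plants answer such a loss of water largely through abscisic acid. That hormone switches on transcripts for hydrophilic protective proteins such as late embryogenesis abundant (LEA) proteins and dehydrins, for enzymes that make compatible solutes, and for transporters and regulators. Many of these transcripts are almost absent from roots with enough water. Wheat carries 3 related subgenomes, A, B and D, and probes of 1 member of a gene family can bind its relatives, called homoeologues.

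On the PEG arrays the 213 probe sets had a median signal of 353.2 for Luohan No.2 and 780.7 for Chinese Spring, against 48.5 and 41.6 on the water arrays of the same cultivars. PEG signals spanned 100 to 5222.1 for Luohan No.2 and 100.2 to 5681.7 for Chinese Spring. In water the range was 0.3 to 1679.6 in Luohan No.2 and 0.2 to 1048.1 in Chinese Spring. A signal of 1000 or more was reached by 41 members on the Luohan No.2 PEG array and 85 on the Chinese Spring PEG array, against 3 and 1 on the water arrays. The 2 conditions therefore overlapped across members. Within 1 member and cultivar the rule itself keeps them apart. For only 3 of the 213 was the higher of the water signals as large as the lower of the PEG signals, and the rule leaves little room for more.

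**Figure D1:**
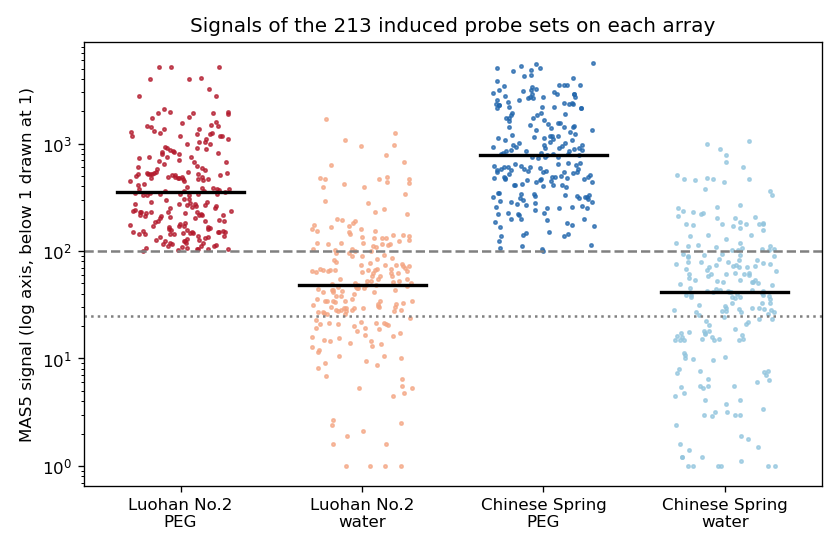
Signals of the 213 induced probe sets on each of the 4 arrays, on a log axis, with 1 point per probe set and a black bar at the median (353.2 and 48.5 in Luohan No.2 PEG and water, 780.7 and 41.6 in Chinese Spring PEG and water). The dotted line is the level of 25 to which weak signals were raised and the dashed line the minimum of 100 for PEG signals.

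The size of the response differed widely among the members. The median fold was 5.24 for Luohan No.2, with quartiles of 3.88 and 8.79. For Chinese Spring it was 10.7, with quartiles of 5.25 and 31.3. Over all 11670 probe sets with a signal of 100 or more on both PEG arrays the median folds were 1.08 and 0.996, and 1.87% of these met the 3-fold limit in both cultivars. A fold of 10 or more in both cultivars was found for 37 members, and a fold below 5 in both for 35. Both water signals were below 25 for 44 members, and their folds are bounds on both sides. At the other end, 45 members had 100 or more on both water arrays as well, with median folds of 4.28 for Luohan No.2 and 5.37 for Chinese Spring. Another 30 were below 25 in water in Chinese Spring alone and 10 in Luohan No.2 alone.

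A gene was paired with 15 of the 213 probe sets (7.04%), against 2.08% of all probe sets. These 15 stand for 14 genes, each known in the tables used here only by a locus number and by the GenBank accession of the sequence from which the probe set was built. No function is therefore given for them. The other 198 members had no gene. All 14 genes were found in the RefSeq table of the assembly IWGSC CS RefSeq v2.1, a genome of Chinese Spring, where 6 lie on chromosomes of homoeologous group 1, 3 on group 6, 2 on group 4, 2 on group 7 and 1 on group 2. By subgenome they number 7 on D, 4 on B and 3 on A. The spread of all annotated genes over the chromosomes was not computed, so these counts show no preference for a group or subgenome.

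Among the members paired with a gene, LOC542888 (accession CK163939, chromosome 6B) came first by the smaller of its 2 folds, with bounds taken at their value. Its probe set Ta.13255.1.S1_at read 1184.6 on the Luohan No.2 PEG array and 2.5 on the water array of that cultivar. In Chinese Spring it read 4320.8 in PEG and 0.5 in water. It was thus far below 25 on both water arrays and bright on both PEG arrays, with a PEG signal at least 47.4 times the water floor in Luohan No.2 and at least 173 times in Chinese Spring. A second probe set of this gene, Ta.2787.1.S1_at, was far dimmer, at 40.6 in PEG and 2.5 in water in Luohan No.2 and at 356 in PEG and 1.6 in water in Chinese Spring. It too was below 25 on both water arrays and higher in PEG in Chinese Spring. In Luohan No.2 it missed both the signal limit and the 3-fold limit, with a fold of 1.62 over the floor.

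LOC542799 (AB097412, chromosome 1D) was the brightest of the 14 genes under PEG in Chinese Spring. Its probe set Ta.13183.1.S1_s_at had 1249.7 in PEG and 42 in water in Luohan No.2, a 29.8-fold difference. In Chinese Spring the same probe set had 4805.3 in PEG and 8 in water, at least 192-fold. Its other probe set, Ta.13183.1.S1_x_at, had 836.3 in PEG and 33 in water in Luohan No.2, and 3866.2 in PEG and 1.4 in water in Chinese Spring. Both probe sets thus gave the same order of the 4 arrays, apart from the size of the signal.

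Another 4 genes had folds of 10 or more in both cultivars. LOC542804 (AB115914, chromosome 1B) read 1175.1 in PEG and 67.2 in water in Luohan No.2, and 2973.3 in PEG and 14.9 in water in Chinese Spring. LOC543084 (AY148492, chromosome 1B) read 353.2 in PEG and 27.3 in water in Luohan No.2, and 1729.4 in PEG and 17.9 in water in Chinese Spring. In the annotated gene order of chromosome 1B only 1 gene lies between these 2. LOC543396 (AY148491, chromosome 1D) read 604.9 in PEG and 29.4 in water in Luohan No.2, and 2901.5 in PEG and 18.7 in water in Chinese Spring. LOC543251 (U73212) read 528.2 in PEG and 46.3 in water in Luohan No.2, and 1725.5 in PEG and 17.5 in water in Chinese Spring. It lies on chromosome 6B, with 13 annotated genes, 9 of them protein-coding, between it and LOC542888. In all 4, picked for their folds, Chinese Spring had the higher PEG signal and the lower water signal.

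The accession of LEA1, a gene for a late embryogenesis abundant protein and 1 of the 3 set aside, is AY148490. It is followed by those of LOC543396 and LOC543084, and the 3 genes lie on chromosomes 1A, 1D and 1B. LEA1 (Ta.23797.1.S1_x_at) had 743.7 in PEG and 47.1 in water in Luohan No.2, and 2820.6 in PEG and 40.5 in water in Chinese Spring. How far the 3 probe sets read each other's transcripts was not tested, and the names of those of LEA1 and LOC543084 mark possible cross-hybridisation.

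Some genes responded with a similar fold in both cultivars. LOC100125738 (CK198324) had 2764.9 in PEG and 786.6 in water in Luohan No.2, and 3113.8 in PEG and 890.1 in water in Chinese Spring, folds of 3.52 and 3.50. LOC542820 (AF005993) had 204.9 in PEG and 52.1 in water in Luohan No.2, and 266.6 in PEG and 71.4 in water in Chinese Spring, folds of 3.93 and 3.73. LOC543132 (AY517470) had 1248.4 in PEG and 193.7 in water in Luohan No.2, and 579.6 in PEG and 103.2 in water in Chinese Spring, folds of 6.45 and 5.62. The last was brighter in Luohan No.2 in both conditions.

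For 5 of the 15 annotated probe sets the Luohan No.2 fold was the larger number. The clearest case was LOC543498 (M21962, Ta.22673.1.S1_s_at), with 1234.1 in PEG and 58.8 in water in Luohan No.2, a 21.0-fold difference, and 496.1 in PEG and 53.9 in water in Chinese Spring, a 9.20-fold difference. Its other probe set, TaAffx.128418.103.A1_at, was below 25 on all 4 arrays. LOC542792 (AB076807) had 251.1 in PEG and 19.2 in water in Luohan No.2, and 123.8 in PEG and 5.3 in water in Chinese Spring.

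In 3 further genes the fold was larger in Chinese Spring, and the water signal there was the lower of the pair. LOC100049041 (CA629859) had 670.9 in PEG and 67.8 in water in Luohan No.2, and 1571.2 in PEG and 28.4 in water in Chinese Spring. LOC100037562 (CK196594) had 263.8 in PEG and 55.1 in water in Luohan No.2, and 795.4 in PEG and 7 in water in Chinese Spring. LOC542796 (AB089942) had 458.2 in PEG and 117.1 in water in Luohan No.2, and 977.5 in PEG and 60.9 in water in Chinese Spring, folds of 3.91 and 16.1. Over the 15 annotated probe sets, with signals under 25 taken as 25, the Luohan No.2 water signal was the higher in 11 and the lower in 2, and 2 were under 25 on both water arrays.

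**Figure D2:**
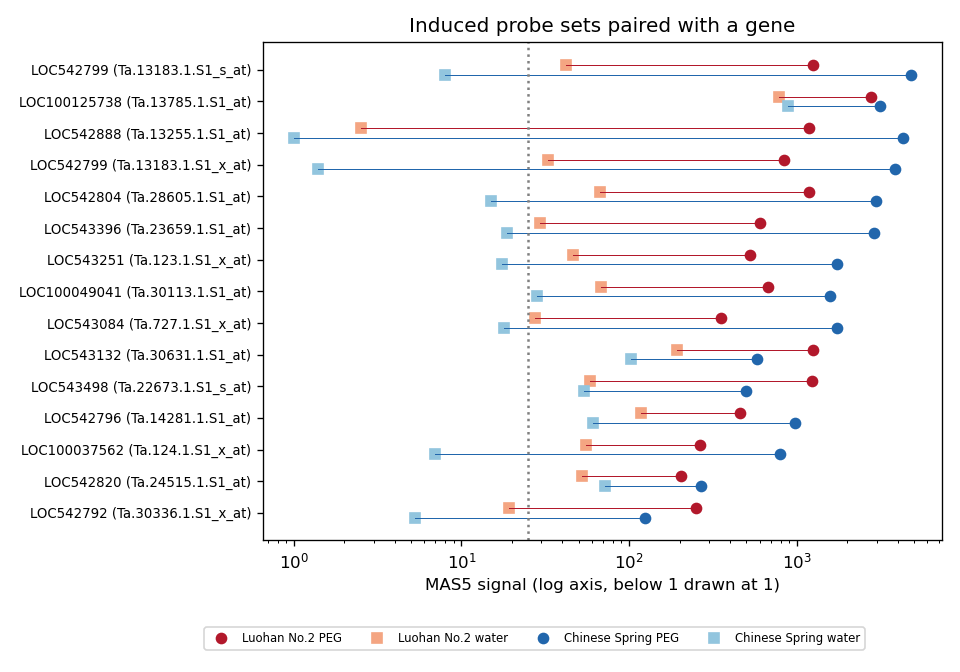
Signals of the 15 induced probe sets paired with a gene (14 genes), on a log axis, with circles for PEG, squares for water and a line joining the pair of each cultivar. In every pair the PEG signal lies to the right, as the rule requires, and Chinese Spring had the larger fold in 10 of the 15. The dotted line marks 25.

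Most members, 198 of 213, had no gene in the annotation, so many strong responses fall among them. Of the 37 members with a fold of 10 or more in both cultivars, 7 were paired with a gene, against 15 of all 213. By the smaller of its 2 folds, with bounds taken at their value, Ta.226.1.S1_at came first, with 1881.3 in PEG and 34.3 in water in Luohan No.2 (54.8-fold), against 3452.2 in PEG and 4.8 in water in Chinese Spring (138-fold or more). TaAffx.128555.1.S1_at had 1230.4 in PEG and 31.9 in water in Luohan No.2, and 3230.2 in PEG and 6.4 in water in Chinese Spring. Ta.18239.1.S1_at had 1451.4 in PEG and 41.4 in water in Luohan No.2, and 3523.8 in PEG and 51.8 in water in Chinese Spring. All 3 were dim in water on both arrays and above 1000 in PEG on both.

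Ta.14931.1.S1_at had 851.7 in PEG and 6.8 in water in Luohan No.2, and 2679.4 in PEG and 32.7 in water in Chinese Spring. Ta.10765.1.A1_at had 844.2 in PEG and 15.5 in water in Luohan No.2, and 5056.5 in PEG and 2.9 in water in Chinese Spring, which gave bounds of 33.8-fold and 202-fold. Ta.28273.1.S1_x_at had 1954.3 in PEG and 63.8 in water in Luohan No.2, and 2903.8 in PEG and 32.8 in water in Chinese Spring. The remaining 4 of the 10 largest by this measure among members without a gene were Ta.22050.1.S1_at, Ta.8085.1.S1_at, Ta.14247.1.S1_at and Ta.23814.1.S1_at. The Luohan No.2 folds of Ta.8085.1.S1_at and Ta.23814.1.S1_at were 28.7 and 24.6, against 137 and 104 for Chinese Spring. Those of Ta.22050.1.S1_at and Ta.14247.1.S1_at were bounds, of 29.8 and 26.9 for Luohan No.2 and 87.0 and 94.1 for Chinese Spring. In these 10 the fold in Chinese Spring was the larger number, though a bound on either side leaves the true ratio unknown.

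The brightest members under PEG were not those with the largest folds. TaAffx.128595.1.S1_at had 5173.2 in PEG and 1679.6 in water in Luohan No.2, and 5506.8 in PEG and 1048.1 in water in Chinese Spring, folds of 3.08 and 5.25. Ta.16827.1.S1_x_at had 5222.1 in PEG and 1260.8 in water in Luohan No.2, and 5303.8 in PEG and 330.5 in water in Chinese Spring. Its partner Ta.16827.1.S1_s_at had 4057.3 in PEG and 940.6 in water in Luohan No.2, and 3493.6 in PEG and 266.7 in water in Chinese Spring. In both of these the PEG levels of the cultivars were close and the water levels lay apart, which gave Luohan No.2 folds of 4.14 and 4.31 against Chinese Spring folds of 16.0 and 13.1. Ta.8574.2.A1_at and Ta.12098.1.S1_at completed the 5 brightest, with Luohan No.2 folds of 8.18 and 4.08 and Chinese Spring folds of 5.96 and 3.36.

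Rab15, a protein of the same family of water-stress proteins as LEA1, was set aside but would have ranked high. Its brightest probe set had 577.1 in PEG and 17.4 in water in Luohan No.2, and 2736.1 in PEG and 10.1 in water in Chinese Spring, and by the smaller of the 2 folds 13 members ranked above it. By the same measure 22 members ranked above LEA1 and 133 above Glc1. The member TaAffx.46097.1.S1_at has no gene of its own but shares its cluster number with a probe set annotated to Rab15. It had 150.7 in PEG and 2.7 in water in Luohan No.2, and 1546.5 in PEG and 4.5 in water in Chinese Spring. The annotated neighbour, TaAffx.46097.2.S1_at, had 134.3 in PEG and 1.9 in water in Luohan No.2, and 1342.4 in PEG and 1.2 in water in Chinese Spring. On both PEG arrays the 2 probe sets had similar signals, and both were below 25 in water.

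The response was larger in Chinese Spring for most members. The fold in Luohan No.2 was the smaller for 171 of 213 (80.3%), against 45.5% of all probe sets with 100 or more on both PEG arrays. These folds chose the members, and the balance depends on the choice. By the rule in Luohan No.2 alone, which 418 probe sets (0.684% of all) met, the Luohan No.2 fold was the smaller for 42.1%, with a median log2 difference, Luohan No.2 minus Chinese Spring, of 0.41. By the rule in Chinese Spring alone, which 695 (1.14%) met, it was the smaller for 94.0%, with a median of -1.74. Among the 213 the median difference, taken the same way, was -1.17, against 0.07 over the 11670 with 100 or more on both PEG arrays. A water signal below 25 on at least 1 array makes a fold a bound, and this held for 84 members. Among the 129 with both water signals at 25 or more the median difference was -0.55, and the fold in Luohan No.2 was the smaller for 98. A response at least 2-fold larger in Chinese Spring was found for 111 members and one at least 2-fold larger in Luohan No.2 for 8, while 71 were within 1.5-fold. For 39 of the 111 both folds are bounds, and no such counts over all probe sets are given here. All 40 members with a fold of 50 or more in Chinese Spring had a smaller one in Luohan No.2, which a choice by the Chinese Spring value favours.

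**Figure D3:**
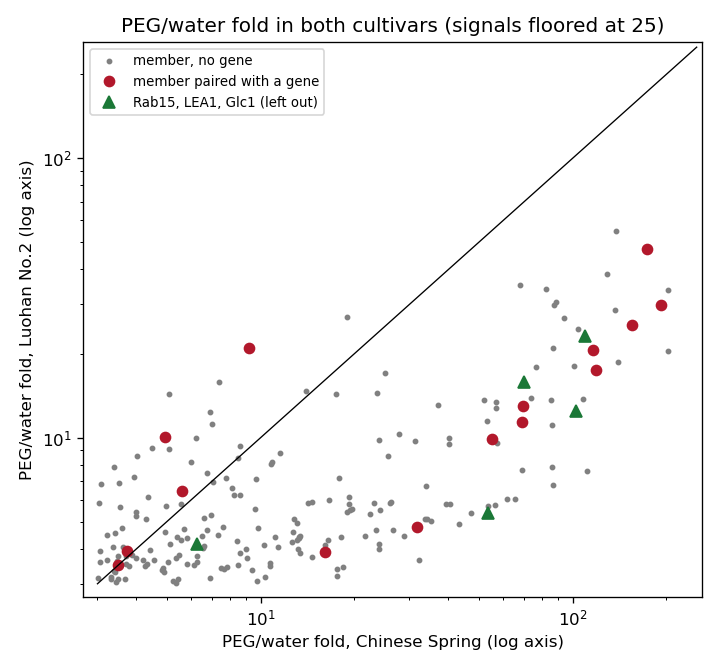
PEG/water fold of each induced probe set in Luohan No.2 (vertical, log axis) against Chinese Spring (horizontal, log axis), with signals under 25 set to 25 and the line of equal folds. Chinese Spring folds reach 202, the largest Luohan No.2 fold is 54.8, and 171 of 213 points lie under the line. Triangles are the Rab15, LEA1 and Glc1 probe sets that were set aside.

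At the median of the 213 members, the cultivars differed in the PEG signals and not in the water signals. In PEG the Luohan No.2 signal was the lower for 169 of 213 members (79.3%), against 44.8% of all probe sets with 100 or more on both PEG arrays, with a median log2 Luohan No.2/Chinese Spring of -0.97. In water the median was 0.00, with 76 members lower and 93 higher in Luohan No.2 and 44 under 25 in both. Members at least 2-fold apart in PEG numbered 16 with the higher signal in Luohan No.2 and 106 with the higher signal in Chinese Spring. In water these numbers were 21 and 11, and no such counts over all probe sets are given here. The PEG signals had a part in the choice of members, and the balance in PEG depends on that choice. By the rule in Luohan No.2 alone the Luohan No.2 PEG signal was the lower for 47.8%, with a median log2 Luohan No.2/Chinese Spring of 0.12. By the rule in Chinese Spring alone it was the lower for 86.8%, with a median of -1.28.

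Ratios of 5' to 3' signal, used to judge how complete the labelled transcripts are, differed among the arrays. The ratio of 5' to 3' signal of the sucrose synthase control was 0.0216 and 0.0554 on the Luohan No.2 PEG and water arrays and 0.0693 and 0.0805 on the Chinese Spring PEG and water arrays. For the glucose-6-phosphate dehydrogenase control it was 0.243 and 0.375 in Luohan No.2 PEG and water and 0.388 and 0.390 in Chinese Spring PEG and water. For ubiquitin it was 1.59, 2.45, 2.73 and 3.50 in that order. For dap, a control RNA added to the samples during the assay, it was 0.0598 and 0.0760 in Luohan No.2 PEG and water and 0.320 and 0.372 in Chinese Spring PEG and water. The dap ratio was thus low on both Luohan No.2 arrays, not in PEG alone. The part of these ratios in the smaller Luohan No.2 folds was not tested. The median signal over all probe sets was 13.9 and 13.5 on the Luohan No.2 PEG and water arrays and 20.2 and 20.3 on the Chinese Spring PEG and water arrays. Leaf transcripts differed between cultivars too: of 6 photosynthesis genes, each by its brightest probe set, 1 and 2 were at 25 or more in Luohan No.2 PEG and water and 6 and 5 in Chinese Spring PEG and water. Their summed signals without rbcl, the large Rubisco subunit, were 58.8 and 88.1 in Luohan No.2 PEG and water and 337.1 and 633.4 in Chinese Spring PEG and water, and with it 2737.1, 2968.3, 8101.7 and 8640.4 in that order. None was at 0, none was 3-fold higher in PEG, and their part in the result was not tested. In such bulk samples, fewer cells of a type and less RNA per cell cannot be told apart.

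**Figure D4:**
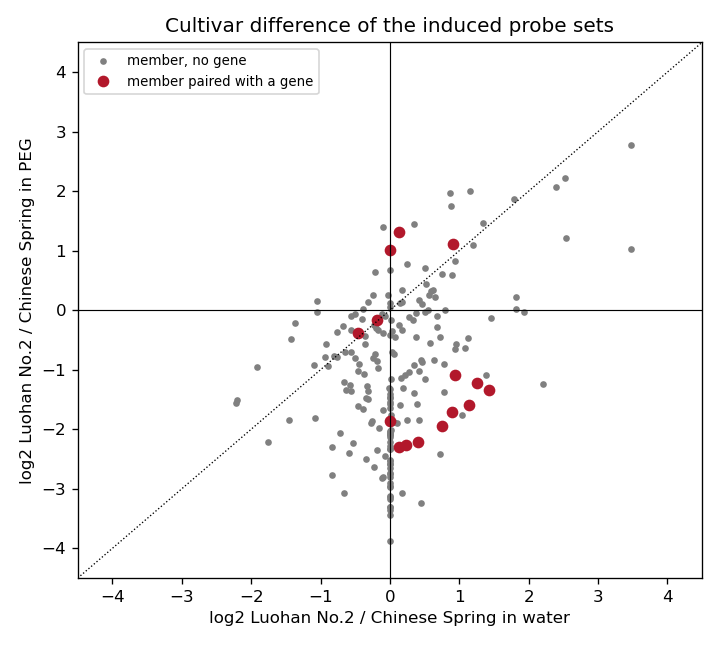
Log2 Luohan No.2 / Chinese Spring in PEG (vertical) against the same in water (horizontal) for the 213 induced probe sets, with signals under 25 set to 25 and a dotted line of equal differences. The points spread about evenly around 0 in water (median 0.00) and lie mostly below 0 in PEG (median -0.97). The column at 0 holds the 44 members under 25 on both water arrays.

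The 5 members with the response most in favour of Chinese Spring were chosen by that difference, and in 3 of them both water signals were below 25. Ta.18239.2.S1_a_at had 189.5 in PEG and 17.1 in water in Luohan No.2, and 2780.1 in PEG and 3.2 in water in Chinese Spring. Ta.28537.1.S1_x_at had 231 in PEG and 34.1 in water in Luohan No.2, and 2170.2 in PEG and 5.6 in water in Chinese Spring. Ta.22764.1.S1_x_at had 988.2 in PEG and 125.5 in water in Luohan No.2, and 2321.4 in PEG and 27.1 in water in Chinese Spring. For the last, both water signals were above 25, and the folds were 7.87 and 85.7. Ta.9389.1.S1_x_at, with 150.3 in PEG and 1.6 in water in Luohan No.2 and 1632 in PEG and 3 in water in Chinese Spring, and TaAffx.46097.1.S1_at, given above, completed the 5.

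The 5 members with the response most in favour of Luohan No.2 had smaller gaps. TaAffx.109424.1.S1_at had 1363.7 in PEG and 95 in water in Luohan No.2, and 519.3 in PEG and 102.2 in water in Chinese Spring, folds of 14.4 and 5.08. Ta.8277.1.A1_at had 532.2 in PEG and 67.7 in water in Luohan No.2, and 476.4 in PEG and 140.8 in water in Chinese Spring. Ta.21151.1.S1_at had 481.4 in PEG and 70.3 in water in Luohan No.2, and 557.9 in PEG and 181.5 in water in Chinese Spring. In these last 2 it was the water signal that was higher in Chinese Spring. Ta.18673.1.S1_at, with 393.2 in PEG and 45.7 in water in Luohan No.2 and 100.2 in PEG and 1.2 in water in Chinese Spring, and LOC543498, given above, completed the 5. No member had a fold 3 times larger in Luohan No.2, whereas 81 did in Chinese Spring. These same folds chose the members, and no such counts over all probe sets are given here. For 33 of the 81 both water signals were below 25, so both folds are bounds.

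To see the response in a cultivar that had no part in the choice, the rule was applied in 1 cultivar and the fold read in the other. In Luohan No.2 alone 418 probe sets met it, and in Chinese Spring alone 695. The 218 that met it in both are 52.2% of the Luohan No.2 list and 31.4% of the Chinese Spring list. Of the 418 chosen in Luohan No.2, 221 (52.9%) reached 3-fold in Chinese Spring, against 3.59% of all probe sets with a Luohan No.2 PEG signal of 100 or more. Of the 695 chosen in Chinese Spring, 232 (33.4%) reached 3-fold in Luohan No.2, against 2.59% of all with a Chinese Spring PEG signal of 100 or more. The median fold in the cultivar not used was 3.37 for the first list and 2.19 for the second, against 0.982 and 1.04 over the probe sets bright enough in PEG. These comparisons were matched on the PEG signal only, and the lists were dimmer in water, as given below. Over the 11670 probe sets with 100 or more on both PEG arrays the median water signal was 338 in Luohan No.2 and 330.7 in Chinese Spring. At least 2-fold lower in the other cultivar were 6 of the 418 (1.44%) and 12 of the 695 (1.73%), against 5.98% and 8.55% of all probe sets bright enough in PEG. With signals floored at 25, a probe set dim in water could not read 2-fold lower. The lower quartile and median of the water signal in the other cultivar were 27.2 and 66.55 for the first list and 21.4 and 65.7 for the second. The floor and the choice therefore favour small shares, and no conclusion is drawn from them.

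**Figure D5:**
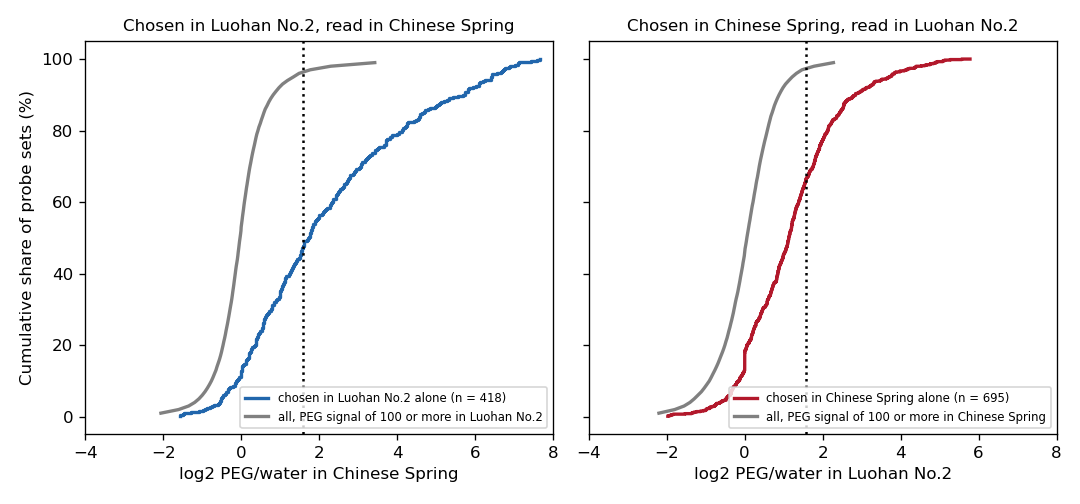
Cumulative share of probe sets by log2 PEG/water in the cultivar that was not used to choose them, for the 418 chosen in Luohan No.2 and read in Chinese Spring (left) and the 695 chosen in Chinese Spring and read in Luohan No.2 (right). Grey curves are all probe sets with a PEG signal of 100 or more in the choosing cultivar, drawn from their percentiles, and dotted lines mark 3-fold, which 52.9% and 33.4% of the chosen probe sets reached.

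The mirrored rule, with 100 or more on both water arrays and at least 3-fold less in PEG in each cultivar, was met by 179 probe sets (0.293%). Their median log2 PEG/water was -2.52 in Luohan No.2 and -2.63 in Chinese Spring, and the median difference between cultivars, Luohan No.2 minus Chinese Spring, was 0.11, against -1.17 for the induced probe sets. Whether the cultivars' inequality differs between induced and lowered transcripts could not be tested with 1 array per group.

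Probe sets that share a cluster number read the same or related sequences, so their values need not be equal. The 213 members fall into 189 cluster numbers, of which 20 hold 2 members and 2 hold 3. Within these 22 the median range of log2 PEG/water was 0.23 in Luohan No.2 and 0.38 in Chinese Spring, and the widest were 2.21 and 1.72. In the widest case in Luohan No.2, Ta.18239.1.S1_at was 35.1-fold higher in PEG and Ta.18239.2.S1_a_at 7.58-fold or more. Ta.14247 has 3 members, whose PEG signals were 672.4, 340.8 and 192.3 on the Luohan No.2 array and 2353, 2135.9 and 1725.4 on the Chinese Spring array, while all 6 water signals were below 25.

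The clusters of the members hold 99 further probe sets, leaving out TaAffx.128418, a number shared by 113 probe sets of which 1 is a member, a choice made after its size was seen. Of the 99, 68 had less than 100 on at least 1 PEG array. Among the other 31 the median fold was 2.15 in Luohan No.2 and 3.85 in Chinese Spring, 17 were at least 2-fold higher in both and 0 were 2-fold lower in either. Of all 11670 probe sets with 100 or more on both PEG arrays, 446 were at least 2-fold higher in both. That limit on the PEG signals favours probe sets that were not lowered, so the 0 is not a result about these clusters. Of the 31, at least 3-fold were 17 in Chinese Spring but not in Luohan No.2, 3 in Luohan No.2 but not in Chinese Spring, and 1, the Rab15 probe set named above, in both. Large disagreement occurred in Ta.28695, whose member Ta.28695.2.S1_s_at had 881.4 in PEG and 140.9 in water in Luohan No.2 and 4110 in PEG and 478.1 in water in Chinese Spring. Its neighbour Ta.28695.3.S1_at had 142.5 in PEG and 143.5 in water in Luohan No.2, but 1753.7 in PEG and 292.8 in water in Chinese Spring. This example was chosen after its values were seen.

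In their names, 40 members (18.8%) end in _x_at, a mark of probes that can bind other sequences, against 11.1% of all probe sets, and 13 (6.10%) end in _s_at, against 4.28%. Antisense naming (A1) was found for 40 members (18.8%), against 17.4% of all. Only 27 members (12.7%) bear the prefix TaAffx, against 48.6% of all probe sets.

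Of the wheat genes with a usable name, few belonged to classic stress groups. The genes of the members are known only by locus numbers, so no member could be matched to a list. The counts that follow therefore do not show which functions the members have. Across 9 lists for osmotic stress, 25 genes were matched in 7 lists, and no gene was matched for abscisic acid synthesis and signalling or for stress transcription factors. By brightest probe set a fold of 3 or more was found for 2 in Luohan No.2 and 4 in Chinese Spring, and 0 were 3-fold lower in PEG in either, against 2.85% and 5.32% higher and 1.43% and 1.04% lower of 771 annotated genes. The 2 that were higher in both, Rab15 and LEA1, are of the 5 LEA and dehydrin genes, and 2.33% of annotated genes were so. The other 3 of that list, COR410, EMH2 and EM, reached at most 27.0 on any array. PEAMT1, which methylates phosphoethanolamine on the way to choline, 1 of 3 genes of osmolyte synthesis, had folds of 1.09 in Luohan No.2, and 4.08 for Chinese Spring. TaGlu1a, a beta-glucosidase and 1 of 7 defence genes, had a PEG/water ratio of 0.733 in Luohan No.2, against 3.52 for Chinese Spring. The 5 detoxification genes, 2 chaperones, 2 transport genes and 1 gene of the protease list held none at 3-fold in either cultivar. Among these, lgul, CAT1, Prx1, hsp16.9A and LTP3 reached at most 29.0 on any array, too dim for a 3-fold rise over the floor of 25. Of all 25 listed genes, 19 were at 25 or more on any array.

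The limits of the rule cut through a continuous range. Just inside the fold limit were Ta.11258.1.A1_at with folds of 3.14 for Luohan No.2 and 3.02 for Chinese Spring, Ta.14168.1.S1_at with 3.03 and 5.36, and Ta.14558.1.S1_at with 5.82 and 3.04. Just outside were TaAffx.113733.1.S1_at with 3.28 and 2.99, Ta.14214.1.A1_s_at with 2.98 and 4.84, and Ta.6853.1.A1_at with 2.97 and 3.99. For the signal limit, Ta.24294.1.A1_at was inside with 100 on the Luohan No.2 PEG array, Ta.18673.1.S1_at with 100.2 on the Chinese Spring PEG array and Ta.10784.1.A1_at with 101.9 on the Luohan No.2 PEG array. Outside were Ta.9830.1.A1_at, Ta.28555.2.S1_at and Ta.4494.1.S1_at, with 97.2, 97.0 and 95.0 on the Luohan No.2 PEG array.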

How the data were processed

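Root RNA of 4 samples was measured on biotin-labelled Affymetrix arrays of 1 colour, with 1 array each. The deposited intensity values, 1 per probe set and array on a linear scale, came from MAS5, per the submitters' processing notes (the sources used here name no version). In MAS5 mismatch signal is subtracted, so weak values are noisy. From 61290 probe sets, 175 whose names start with AFFX or RPTR were set aside. Signals were floored at 25, PEG/water folds were taken per cultivar, and log2 was used for medians. No test was run. The selection code was run on simulated data with an assumed noise, with changes added only to probe sets above 100 on both water arrays. Of the 213 members 45 had 100 or more on both, so the run checks the code and not the choice of members dim in water. Named members are those with a gene, the 10 with the largest smaller fold among those without, the 5 brightest in PEG, the 5 most unequal in each direction, and the 3 nearest each limit on either side. Genes came from the platform annotation and a RefSeq gene table. Members and lists were chosen with earlier results of these data known. Alternatives were other floors, scalings, limits and probe set filters. Python 3.11.15, pandas 2.3.3, numpy 2.4.6 and matplotlib 3.10.9 were used.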

Additional observations from a re-analysis of the deposited data

How the results depend on the processing

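No paired analysis was possible because no result here comes from a test. With 1 array per group no replicate could be left out. A count is called moved beyond 1.5 times its value and a log2 median beyond 0.1. Only the fold limit moved the counts: with 2-fold there were 441 members, 446 with the genes set aside, and 1179 and 1315 in Luohan No.2 and Chinese Spring alone, and with 5-fold 99, 103, 159 and 383. Median log2 PEG/water in Luohan No.2 and Chinese Spring was 2.54 and 3.66 with the floor at 10, 2.20 and 3.11 with it at 50, and 2.07 and 2.97 as log2(signal + 25). For Chinese Spring it was 3.28 once probe sets named as cross-hybridising were dropped and 3.30 with the brightest member per cluster. The median difference between cultivars, Luohan No.2 minus Chinese Spring, was -0.90 with the floor at 50 and -1.33 after quantile normalization. In PEG the median log2 Luohan No.2/Chinese Spring was -1.09 after quantile normalization and -1.11 after scaling to bright probe sets, and in water it was 0.11 as log2(signal + 25). In the 129 members with both water signals of 25 or more, a choice added after seeing the data, the medians were 2.10 in Luohan No.2, 2.72 in Chinese Spring, -0.55 for the difference and -0.57 in PEG. The median difference between cultivars and the median in PEG stayed below 0 under the other floors, the other scalings, the pseudocount and the probe set filters, and were not computed for other fold or signal limits. Quantile normalization kept 210 of the 213 members and scaling to bright probe sets kept 206. The floor at 50 kept 171, dropping probe sets named as cross-hybridising kept 153, and a PEG signal limit of 200 kept 142.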
